A study of Mus musculus with 6 samples.

Results

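The mitochondrial ribosomal protein genes were taken as every gene of the count table whose deposited symbol was Mrpl or Mrps followed by a number and at most 1 letter. This gave 76 genes of the 45792 in the table, of which 47 carried a large subunit (Mrpl) and 29 a small subunit (Mrps) name. The counts came from RNA sequencing of 6 whole hearts at embryonic day 13.5. Of these, 3 were labelled wild type and 3 were labelled Tie2Cre INO80 flox/flox, and the strain of all 6 was given as C57BL/6. The paper defines its controls as every other genotype of the cross and describes mixed backgrounds. The Tie2Cre driver acts in endothelium and in cells that arise from it, where it was meant to remove the chromatin remodeller gene Ino80, whereas most of the RNA of a whole heart comes from other cells. Ino80 had 30.2, 31.6 and 32.7 counts per M counts (CPM) in the hearts labelled control and 36.5, 33.7 and 31.8 CPM in those labelled mutant. These ranges overlapped, and the log2 fold change was 0.11 (SE 0.08, adjusted p = 0.473, edgeR's quasi-likelihood test). The count over the whole gene in a whole heart therefore did not separate the genotypes, and hearts are named here by their labels. The design calls the 3 hearts of a group biological replicates. The paper's methods state, for its experiments in general, that controls were litter mates and that mutants came from several litters, but the labels tie no heart to a litter. In bulk RNA, fewer cells of a type and less RNA per cell cannot be told apart.

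Mitochondria keep their own ribosome, which translates the few messages of the mitochondrial genome into core subunits of the respiratory chain and the ATP synthase. All of its proteins are encoded in the nucleus and imported, whereas its RNAs, mt-Rnr1 of the small subunit and mt-Rnr2 of the large subunit, are transcribed inside the organelle. Some of the proteins descend from bacterial ribosomal proteins and others are particular to mitochondria. The heart relies heavily on oxidative phosphorylation, and inherited defects of several of these proteins, among them those encoded by MRPL3 and MRPL44, cause cardiomyopathy in infancy.

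All 76 genes were detected in every heart, with 257 to 9331 counts, and all 76 passed the filter on low counts. The libraries held 28948836 to 89675692 counts, the deepest being mutant-labelled replicate 1, and each pair of libraries differed by more than counting noise. The cardiomyocyte markers summed to between 18797 and 23326 CPM in the control-labelled and between 19276 and 20315 CPM in the mutant-labelled hearts. Of these 8 markers, 6 had a log2 fold change below 0 and 2 above, with a median of -0.14. At an unadjusted p below 0.05, 1 was lower and 1 higher. None of the 6 endothelial markers passed that threshold in either direction, nor did more than 1 marker in either direction of the 5 epicardial, 5 fibroblast and 5 macrophage genes. The epicardial sum was nevertheless 156, 152 and 154 CPM in the hearts labelled control against 178, 192 and 165 CPM in those labelled mutant. Of the epicardial genes, 4 had a log2 fold change above 0 and 1 below. The endothelial, fibroblast and macrophage sums overlapped between groups. Of 9 erythroid markers 5 were lower and 1 was higher, and their sum was 8807, 17083 and 39224 CPM in the hearts labelled control against 5552, 6268 and 10204 CPM in those labelled mutant. The 4 liver markers in the table summed to at most 1.77 CPM and the 2 lung epithelial markers to at most 0.409 CPM in a heart. The part of the erythroid, epicardial and cardiomyocyte marker differences in the values below was not tested.

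Expressed per kb of exonic sequence in the control-labelled hearts, the members spanned a 24.6-fold range of levels with a median of 17.6 CPM per kb. Mrps21, the homologue of bacterial S21, had the highest level (76.6 CPM per kb) and Mrpl34, the homologue of bacterial L34, the next (69.7 CPM per kb). The lowest were Mrpl33 (3.11 CPM per kb) and Mrps10 (3.16 CPM per kb), both also descended from bacterial proteins. Each of these genes contributes 1 protein to a ribosome. The exonic lengths were 739 bp for Mrps21 and 607 bp for Mrpl34, against 7326 bp for Mrpl33 and 8079 bp for Mrps10. Before division by length their control-labelled means were closer together, at 56.6 and 42.3 CPM against 22.8 and 25.5 CPM. The large subunit genes had a median of 20.3 CPM per kb and the small subunit genes of 11.9 CPM per kb. The length used is the union of all annotated exons, so a gene with long minor isoforms is given a lower level than its main transcript has. Reads were shared out by annotation, and 31 members have exonic bases in common with another gene, 9 of them over more than 20% of their exonic length. Copies of Mrps36, Mrpl23 and Mrpl48 that are named as pseudogenes were counted as genes of their own, so the counts of these 3 members are less certain.

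No member passed the adjusted p threshold of 0.05, where the background was 0.0% of the 17125 genes tested. The smallest adjusted p of a member was 0.175, for Mrps17, against 0.0533 for all genes (edgeR's quasi-likelihood test, adjusted by Benjamini-Hochberg over all genes). DESeq2 also called 0 members, although it called 570 lower and 443 higher genes in all. At an unadjusted p below 0.05, 9 of the 76 members (11.8%) were lower in mutant-labelled hearts and 0 were higher, against 9.98% lower and 9.48% higher among all genes. The share lower was thus near the background, and the share higher was under it. In 11 members (14.5%) all 3 mutant-labelled hearts lay below all 3 control-labelled hearts and in 1 above them, against 12.8% and 14.3% of all genes. The sign was less even than this, since 59 members (77.6%) had a log2 fold change below 0, against 50.3% of all genes. With 1 heart left out this share ran from 63.2% (without control-labelled replicate 2) to 88.2% (without control-labelled replicate 1). The share of all genes in those fits was 49.1% to 50.5%.

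The changes in either direction were small. The members' log2 fold changes ran from -0.30 to 0.09 with a median of -0.11, whereas the median of all genes was -0.00. The 95% interval excluded a 1.5-fold fall for 73 of the 76 members, the exceptions being Mrpl15, Mrpl55 and Mrps34, and it contained 0 for 67. The median SE of a member was 0.10, below the 0.13 of all genes tested. The median of the members was -0.04 without control-labelled replicate 2 and -0.06 without mutant-labelled replicate 1. It moved to -0.05 when libraries were scaled by their totals alone, where the median of all genes was 0.06. With that scaling 0 members were lower at an unadjusted p below 0.05, against 7.15% lower and 13.5% higher among all genes. Without control-labelled replicate 1, 19 members (25%) were lower, against 11.5% of all genes in the same fit. The count was 1 (1.32%, against 7.33%) without control-labelled replicate 2, 0 (against 6.75%) without mutant-labelled replicate 1 and 5 (6.58%, against 7.22%) without mutant-labelled replicate 2.

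**Figure D1:**
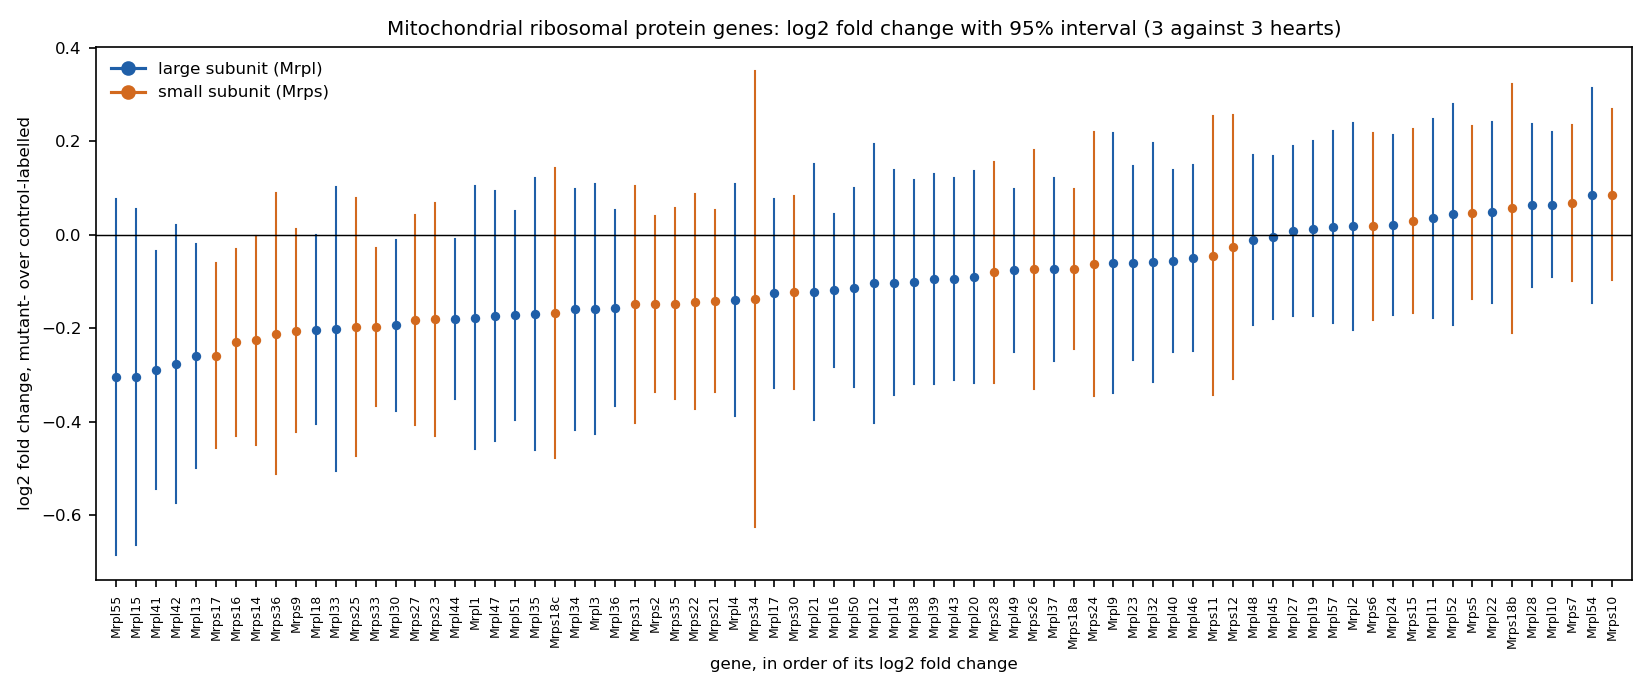
Log2 fold change (mutant- over control-labelled, y axis) of each of the 76 genes, ordered along the x axis by that value, with lines for the 95% interval and colours for the large and small subunit. The values run from -0.30 to 0.09, genes of both subunits are spread along the whole order, and 67 of the intervals contain 0.

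The large and small subunits were then compared. The 47 large subunit genes had a median log2 fold change of -0.10, with 36 below 0 and 5 (10.6%) lower at an unadjusted p below 0.05. The 29 small subunit genes had a median of -0.14, with 23 below 0 and 4 (13.8%) lower at that threshold. Both shares were near the 9.98% of all genes, and the medians were 0.04 apart. Summed over genes, the large subunit reached 1926, 2284 and 2059 CPM in the hearts labelled control and 1828, 1981 and 2008 CPM in those labelled mutant. The small subunit sums were 1046, 1209 and 1092 CPM against 975, 1035 and 1072 CPM. For both subunits the groups overlapped, and the hearts kept the same lowest and highest library, mutant-labelled replicate 1 and control-labelled replicate 2. The ratio of large to small was 1.87 ± 0.03 for the controls and 1.89 ± 0.02 for the mutants by label (SD, n = 3), a difference smaller than these SDs.

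Gene names and places in the ribosome do not always match. Mrps18a and Mrps30 encode proteins that structures place in the large subunit, and Mrps36 encodes a protein now known to belong to the alpha-ketoglutarate dehydrogenase complex. With the first pair counted as large and Mrps36 left out, the medians were -0.10 for 49 large and -0.14 for 26 small subunit genes. The 46 members listed as having a bacterial homologue had a median of -0.10, with 32 below 0. The 30 members not on that list, Mrpl47 among them, had a median of -0.13, with 27 below 0. The list may not be complete. The ranges of these classes overlapped widely and no test of the difference was made.

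Much of the variation ran across hearts rather than between groups. Of the 76 members, 51 had their highest level of all 6 hearts in control-labelled replicate 2 and 44 their lowest in mutant-labelled replicate 1. The summed level of all members was 2972, 3492 and 3151 CPM in the hearts labelled control and 2803, 3016 and 3080 CPM in those labelled mutant. These are means of 3205 ± 264 and 2966 ± 145 CPM (SD, n = 3), and control-labelled replicate 1 lay below 2 of the mutant-labelled hearts. Mutant-labelled replicate 1 was also the most deeply sequenced library, and the part of depth in its low values was not tested beyond thinning all libraries to the smallest total, which left a median of -0.11.

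**Figure D2:**
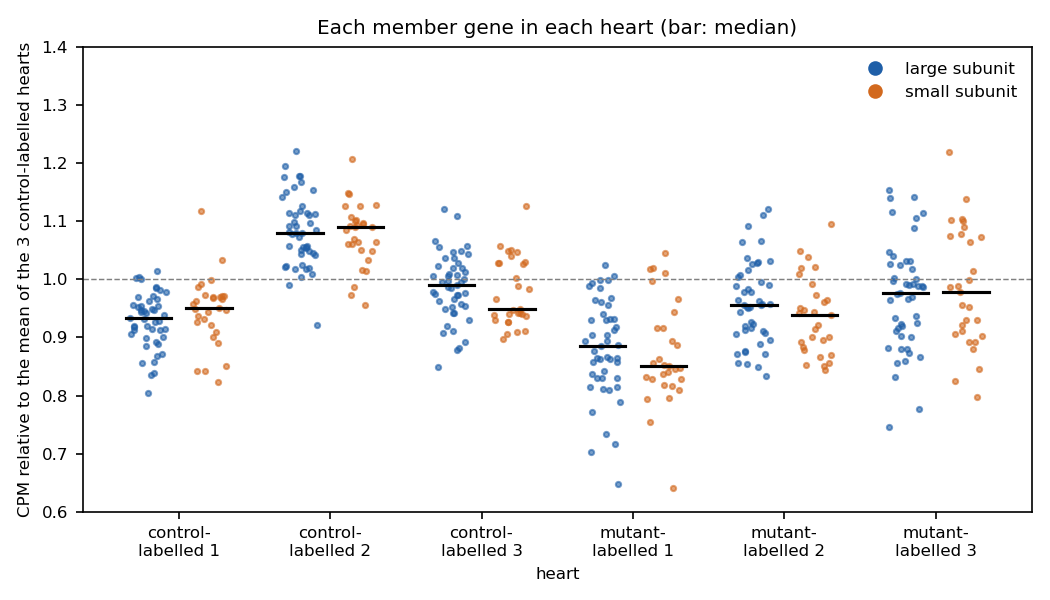
CPM of each member relative to its mean over the control-labelled hearts (y axis) in each of the 6 hearts (x axis), with 1 point per gene and a bar at the median of each subunit. The medians of both subunits are highest in control-labelled replicate 2 (1.08 and 1.09) and lowest in mutant-labelled replicate 1 (0.88 and 0.85).

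Of the small subunit genes, those with the smallest p encode 3 proteins descended from bacterial S17, S16 and S14 and 1 protein particular to mitochondria. Mrps17 (chr5:129715497-129722556, plus strand) had 59.2, 65.5 and 54.3 CPM in the control-labelled and 47.5, 51.6 and 50.5 CPM in the mutant-labelled hearts. All mutant-labelled hearts were below all controls, and the log2 fold change was -0.26 (SE 0.09, adjusted p = 0.175, edgeR). Mrps33 (chr6:39801804-39810988, minus strand), the mitochondria-specific protein, had 57.6, 64.7 and 60.1 CPM against 51.8, 52.1 and 55.4 CPM. Again the groups were apart, with a log2 fold change of -0.20 (SE 0.07, adjusted p = 0.204, edgeR). Mrps16 (chr14:20389304-20393634, minus strand), a gene of recessive mitochondrial disease in humans, had 31.9, 37.2 and 36.1 CPM against 29.2, 31.6 and 28.9 CPM. The highest mutant-labelled heart came close to the lowest control, and the log2 fold change was -0.23 (SE 0.09, adjusted p = 0.208, edgeR). Mrps14 (chr1:160195215-160202170, plus strand) had 36.5, 43.6 and 36.0 CPM against 31.3, 32.9 and 35.1 CPM. The groups were apart by less than the spread within either of them, with a log2 fold change of -0.23 (SE 0.10, adjusted p = 0.254, edgeR).

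Of the large subunit genes, Mrpl41 (chr2:24974117-24975098, minus strand), which encodes a protein particular to mitochondria, had 34.2, 41.6 and 36.6 CPM in the hearts labelled control and 26.8, 32.7 and 32.4 CPM in those labelled mutant. The groups did not overlap, and mutant-labelled replicate 1 stood below the rest, with a log2 fold change of -0.29 (SE 0.11, adjusted p = 0.210, edgeR). Mrpl13 (chr15:55534094-55557748, minus strand), the homologue of bacterial L13, had 60.8, 76.2 and 61.6 CPM against 51.0, 56.7 and 58.3 CPM. Control-labelled replicate 2 stood above the other hearts, and the log2 fold change was -0.26 (SE 0.10, adjusted p = 0.227, edgeR). Mrpl30 (chr1:37890477-37898535, plus strand), from bacterial L30, had 62.0, 71.6 and 65.5 CPM against 55.1, 57.8 and 61.3 CPM. The nearest hearts of the groups differed by less than 1 CPM, and the log2 fold change was -0.19 (SE 0.08, adjusted p = 0.239, edgeR). Mrpl44 (chr1:79776018-79781445, plus strand), whose protein has a ribonuclease III-like fold, had 31.7, 34.7 and 33.5 CPM against 29.2, 30.3 and 28.6 CPM. All mutant-labelled hearts were lower, with a log2 fold change of -0.18 (SE 0.07, adjusted p = 0.239, edgeR). Mrpl18, the remaining member below the unadjusted threshold, had a log2 fold change of -0.20 (SE 0.09, adjusted p = 0.255, edgeR).

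**Figure D3:**
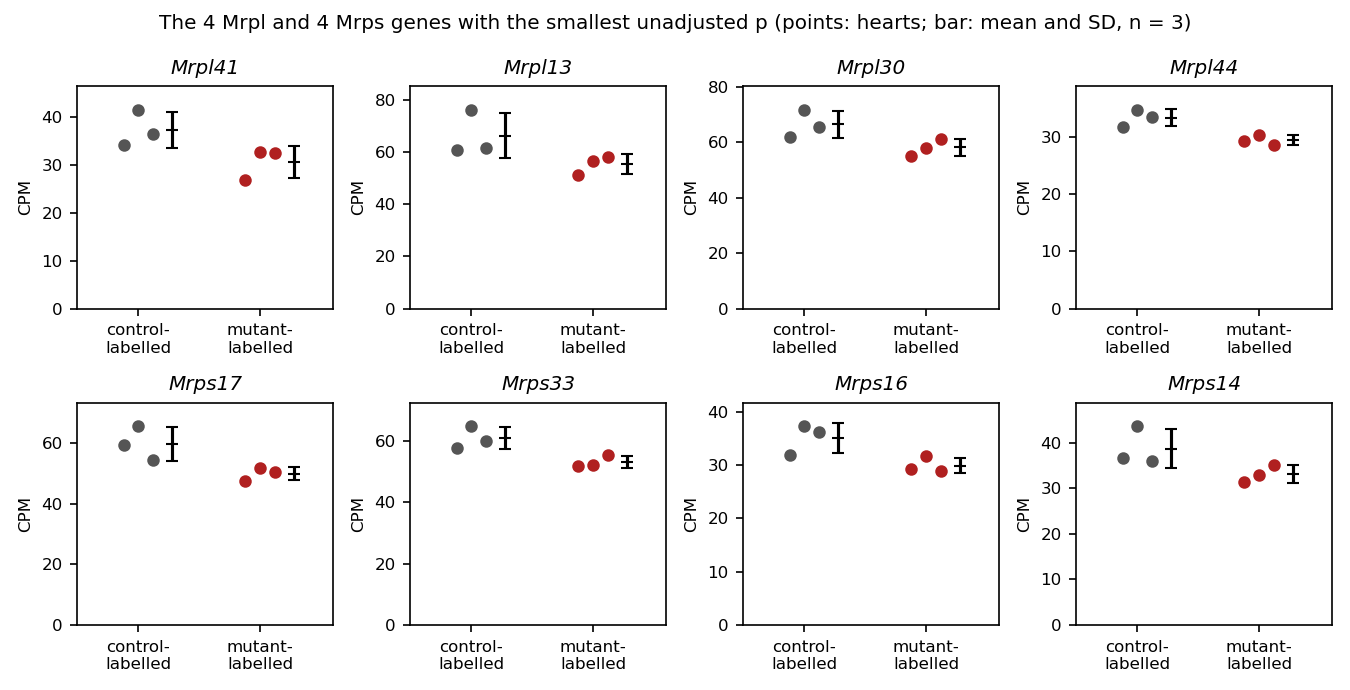
CPM (y axis) in the 3 control-labelled and 3 mutant-labelled hearts for the 4 large and 4 small subunit genes with the smallest unadjusted p, with 1 point per heart and the mean and SD beside the points. In each of the 8 genes the mutant-labelled hearts lie below the control-labelled ones, by margins that are small beside the level.

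The 6 highest log2 fold changes above 0 were those of Mrps10 (0.09), Mrpl54 (0.08), Mrps7 (0.07), Mrpl10 (0.06), Mrpl28 (0.06) and Mrps18b (0.06), each with an SE of about its own size or larger. Mrpl10, which anchors the stalk of the large subunit, was the only member whose mutant-labelled hearts all lay above the controls. It had 39.7, 39.2 and 39.8 CPM in the control-labelled and 40.5, 42.2 and 41.4 CPM in the mutant-labelled hearts, so the margin between the nearest hearts was under 1 CPM. Mrpl12, whose product forms that stalk and also binds the mitochondrial RNA polymerase, had 48.7, 67.3 and 59.1 CPM against 47.5, 57.1 and 58.4 CPM, and the groups overlapped. Its log2 fold change was -0.10 (SE 0.13).

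Other members with known roles at the functional centres gave values of the same size. Mrpl3, a core protein of the large subunit, had a log2 fold change of -0.16 (SE 0.12), and Mrpl45, which lies at the mouth of the exit tunnel where the ribosome meets the inner membrane, had -0.01 (SE 0.08). Mrps12, the decoding centre protein, had -0.03 (SE 0.12), and the signs for Mrpl12, Mrpl45 and Mrps12 turned in at least 1 alternative. The 3 genes descended from bacterial S18 sit at different places in the ribosome. Mrps18a, of the large subunit, had -0.07 (SE 0.07), Mrps18b had 0.06 (SE 0.12) and Mrps18c had -0.17 (SE 0.13), and hearts of the groups overlapped for all 3. Mrps30 had -0.12 (SE 0.09) and Mrps36 -0.21 (SE 0.13). At the extremes of level per kb, Mrps21, Mrpl34 and Mrpl33 had -0.14 (SE 0.08), -0.16 (SE 0.11) and -0.20 (SE 0.13).

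The RNA of the large subunit had a fold change greater in size than any of its proteins. mt-Rnr2, the ribosomal RNA of that subunit, had 3495, 3743 and 2426 CPM in the control-labelled and 1589, 1798 and 1409 CPM in the mutant-labelled hearts. Each mutant-labelled heart was below each control, with a log2 fold change of -1.01 (SE 0.17, adjusted p = 0.0763, edgeR). mt-Rnr1, the ribosomal RNA of the small subunit, named after its values were seen, had 426, 525 and 444 CPM against 466, 471 and 344 CPM. Its groups overlapped, with a log2 fold change of -0.12 (SE 0.14, adjusted p = 0.647, edgeR). The difference between both RNAs was not tested. For mt-Rnr2 the adjusted p was 1.28e-07 in DESeq2, 0.00326 when all genes with at least 1 count were kept and 0.0414 without control-labelled replicate 1, and it ran up to 0.239 in the other alternatives. The libraries were prepared for mRNA, and how much ribosomal RNA each retained was not measured, nor can nuclear copies of the mitochondrial genome be set apart from it.

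Other genes of the pathway were read from the same fit. The 6 ribosomal proteins with other names, such as Chchd1 (-0.18, SE 0.11) and Ict1 (-0.14, SE 0.10), had a median log2 fold change of -0.05 and none passed the unadjusted threshold. The 25 assembly genes had a median of 0.01, and 1 was lower, Mterf3 (-0.22, SE 0.09), whose product helps to assemble the large subunit. The next by p was Mrm1 (-0.24, SE 0.13), a methyltransferase of the large ribosomal RNA. The 13 translation factors had a median of -0.11, and the recycling factor Mrrf (-0.29, SE 0.11) and Taco1 (-0.27, SE 0.11), which activates translation of mt-Co1, were lower. Of 14 genes of mitochondrial transcription and RNA, with a median of -0.14, the elongation factor Tefm (-0.32, SE 0.13) and the RNA-stabilising Lrpprc (-0.18, SE 0.08) were lower. No gene of these lists passed the adjusted threshold in edgeR. The lower genes made up 4% to 15.4% of a list with any, against 9.98% of all genes. By sign alone, 4 of the ribosomal proteins with other names (66.7%) and 11 assembly genes (44%) were below 0. So were 10 translation factors (76.9%) and 12 genes of transcription and RNA (85.7%), against 50.3% of all genes.

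Among 17 mitochondrial aminoacyl-tRNA synthetases the median was -0.08 and 1 (5.88%) was lower, against 9.98% of all genes. That gene was Ears2, which charges the glutamate tRNA. It had 59.1, 76.7 and 91.2 CPM in the hearts labelled control and 52.6, 44.8 and 53.2 CPM in those labelled mutant. The groups were apart, with a log2 fold change of -0.59 (SE 0.15, adjusted p = 0.118, edgeR), larger in size than that of any ribosomal protein. DESeq2 gave it an adjusted p of 0.00631. Nars2, next by p, did not reach the unadjusted threshold. Of 10 regulators of mitochondrial biogenesis, with a median of -0.04, the coactivator Ppargc1a was lower (-0.33, SE 0.12) and its relative Pprc1 higher (0.24, SE 0.10), and both overlapped between groups. That is 10% in each direction, near the 9.98% lower and 9.48% higher among all genes.

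Complex I and the cytosolic ribosome were the gene families set beside the mitochondrial ribosome. Of 36 nuclear subunits of complex I, the first complex of the respiratory chain, 12 (33.3%) were lower at an unadjusted p below 0.05 and 0 higher, against 9.98% and 9.48% of all genes. Their median log2 fold change was -0.24, with Ndufb10 at -0.50 (SE 0.13) and Ndufa1 at -0.31 (SE 0.10). Of the 36, 35 (97.2%) were below 0, against 50.3% of all genes. The complex I genes summed to 4632, 6050 and 5418 CPM in the control-labelled and 4226, 4665 and 4779 CPM in the mutant-labelled hearts. These groups overlapped, and the highest and lowest heart were the same as for the mitochondrial ribosomal proteins. Of 84 cytosolic ribosomal protein genes tested, 0 were lower and 9 (10.7%) higher, the latter near the 9.48% of all genes, with a median of 0.10 and Rpl28 at 0.31 (SE 0.08) and Rpl18 at 0.26 (SE 0.07). Of these 84, 72 were above 0 and 12 (14.3%) below, against 50.3% of all genes below. In 21 (25%) the mutant-labelled hearts all lay above the controls, against 14.3% of all genes. The median of the mitochondrial ribosomal proteins lay between those of the other two families. For the 15 mitochondrially encoded rRNAs and mRNAs the median was -0.14. Of these, 2 (13.3%) were lower, mt-Rnr2 and mt-Co3 (-0.34, SE 0.12), against 9.98% of all genes. All these lists were compiled with earlier results of these data known, and no set test was made.

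**Figure D4:**
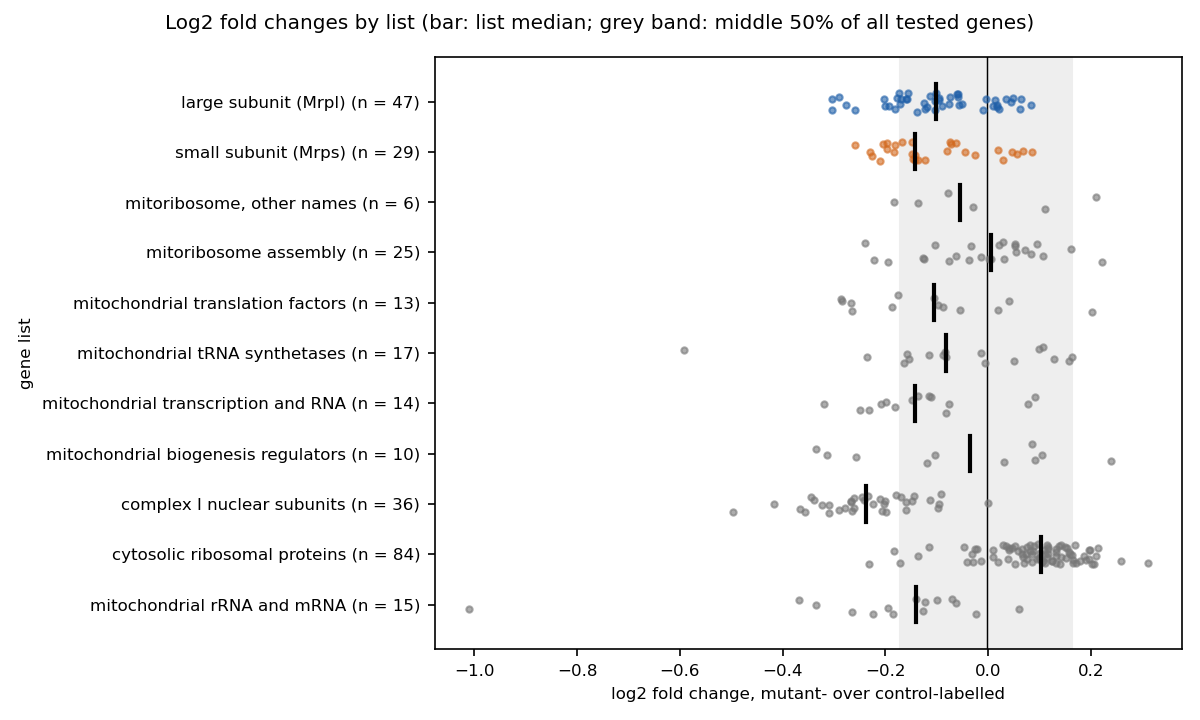
Log2 fold change (mutant- over control-labelled, x axis) of each tested gene of the 2 subunits and 9 other lists (y axis), with a bar at each list's median and a grey band over the middle 50% of all tested genes. The large and small subunit medians (-0.10 and -0.14) lie inside the band, the complex I median (-0.24) lies below it, and mt-Rnr2 stands apart at -1.01.

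The members lie on 17 chromosomes, and many begin beside a gene read in the opposite direction. Of the 76, 33 (43.4%) had a protein-coding gene starting head to head within 1000 bp, against 14.9% of the 14103 tested protein-coding genes. In 21 of these pairs the starts were within 200 bp. A pair of members, Mrpl46 and Mrps11, are such neighbours, with annotated starts 412 bp apart and the genes overlapping between these starts. A tested neighbour was found for 31 members, with the pair of Mrpl46 and Mrps11 counted from both sides. Of these neighbours, 16 had a log2 fold change below 0 and 15 above, with a median of -0.00. Of the 31 members themselves, 23 were below 0.

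At the unadjusted threshold 4 of the 31 neighbours (12.9%) were lower and 3 (9.68%) higher, near the 9.98% and 9.48% of all genes, and they were named after their values were seen. Ptcd2, a pentatricopeptide protein of mitochondrial RNA processing that starts 81 bp from Mrps27, had 57.2, 61.6 and 57.6 CPM in the hearts labelled control and 40.2, 40.5 and 43.9 CPM in those labelled mutant. The groups were far apart, with a log2 fold change of -0.50 (SE 0.07, adjusted p = 0.0645, edgeR), whereas Mrps27 had 45.5, 51.2 and 43.8 CPM against 37.1, 42.1 and 44.6 CPM with overlap between the groups (-0.18, SE 0.10). Other lower neighbours were Twnk, the mitochondrial DNA helicase beside Mrpl43 (-0.34, SE 0.10), and the complex I genes Ndufb5 beside Mrpl47 (-0.34, SE 0.11) and Ndufs6 beside Mrpl36 (-0.32, SE 0.13). Higher neighbours were the condensin gene Ncapd2 beside Mrpl51 (0.42, SE 0.10), the DNA repair gene Eme1 beside Mrpl27 (0.35, SE 0.10) and Gga3, of Golgi transport, beside Mrps7 (0.28, SE 0.09). Mrpl51 itself had -0.17 (SE 0.10), opposite in sign to its neighbour. Overlapping ends of such pairs share reads, and the setting for them is not given in the sources used here.

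**Figure D5:**
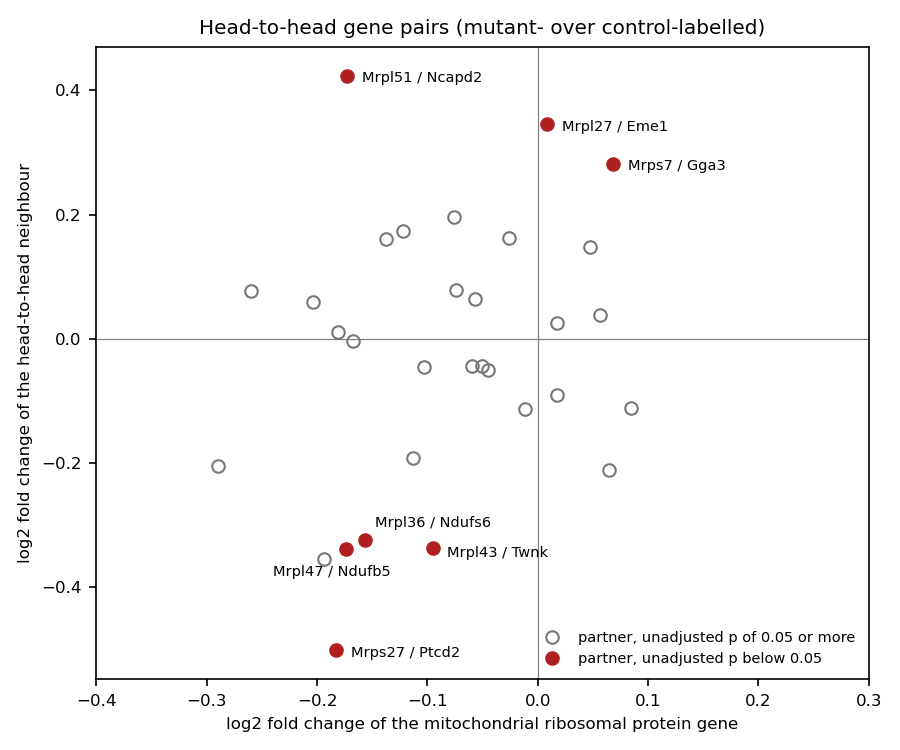
Log2 fold change of each member (x axis) against that of its head-to-head neighbour (y axis) for the 31 members with a tested neighbour. Filled points mark neighbours with an unadjusted p below 0.05, and Mrpl46 and Mrps11 each appear as both member and neighbour. The neighbours span -0.50 to 0.42 and lie on both sides of 0, whereas 23 of the members lie left of 0.

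Since the members share a function but are scattered over the genome, their promoters were read on both strands for short motifs. RefSeq promoters on GRCm38.p6, from 250 bases before to 50 after a start, matched 67 of the 76 members and gave 73 sequences. The ETS core CCGGAAG stood in 24 (32.9%), against 15.6% of the promoters of tested genes and 8.86% of all promoters. The YY1 core AAGATGGC stood in 12 (16.4%), against 3.91% and 2.75%. The NRF1 palindrome, GCGCA followed at once by its reverse complement, bound by a factor known for nuclear genes of mitochondria, stood in 3 (4.11%), those of Mrpl9, Mrpl32 and Mrpl39, against 1.88% and 0.971%. E2F letters (TTTCCCGC or TTTGGCGC) stood in 2 (2.74%), against 2.68% and 1.56%. CCAAT stood in 39.7% against 37.1% and 37.4%, and TATAAA in 6.85% against 7.35% and 13.6%. A match is a run of letters and was not tested for binding.

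The promoters below, from 100 bases before to 30 after the start in the direction of the gene, show the ETS, YY1 and NRF1 letters in capitals. Mrps18a (chr17:46110904-46111033, plus strand) and Mrps27 (chr13:99344686-99344815, plus strand) hold both ETS and YY1 letters, the YY1 run in each case just after the start. Mrps12 (chr7:28741792-28741921, minus strand) and Mrpl3 (chr9:105053168-105053297, plus strand) hold the ETS letters near it, and Mrpl9 (chr3:94443236-94443365, plus strand) holds the NRF1 palindrome. Mrps17 (chr5:129715397-129715526, plus strand), the member with the smallest p, is shown as a window with none of these 3.
Mrps18a: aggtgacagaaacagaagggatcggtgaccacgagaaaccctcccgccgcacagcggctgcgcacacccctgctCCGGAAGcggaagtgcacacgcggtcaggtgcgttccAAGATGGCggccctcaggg
Mrps27: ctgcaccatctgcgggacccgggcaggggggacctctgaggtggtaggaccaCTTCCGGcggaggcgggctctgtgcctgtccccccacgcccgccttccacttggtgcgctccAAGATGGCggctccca
Mrps12: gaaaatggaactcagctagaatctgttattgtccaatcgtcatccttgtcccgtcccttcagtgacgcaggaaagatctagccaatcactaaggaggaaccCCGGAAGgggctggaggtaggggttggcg
Mrpl3: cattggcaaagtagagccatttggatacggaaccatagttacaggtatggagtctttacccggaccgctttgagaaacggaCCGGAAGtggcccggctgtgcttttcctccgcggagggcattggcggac
Mrpl9: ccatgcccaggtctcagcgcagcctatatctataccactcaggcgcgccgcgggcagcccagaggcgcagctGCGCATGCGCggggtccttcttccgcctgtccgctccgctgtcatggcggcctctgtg
Mrps17: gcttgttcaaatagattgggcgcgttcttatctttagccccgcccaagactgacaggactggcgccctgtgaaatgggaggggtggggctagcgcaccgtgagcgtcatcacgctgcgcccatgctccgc

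In Mrps27 the ETS letters stand on the opposite strand, as CTTCCGG. By log2 fold change, the 24 genes with ETS letters had a median of -0.13 and the 43 without -0.10, and the 12 with YY1 letters had -0.07 against -0.12 for the 55 without. The 3 genes with the NRF1 palindrome had a median of -0.06.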

How the data were processed

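RNA was measured in 6 whole hearts. The authors aligned paired-end reads to GRCm38 with STAR 2.4.2a and GENCODE vM6 and deposited a table of raw counts per gene (summarizeOverlaps, not normalized). Strand and overlap settings are not given in the sources used here. The authors' comparison table holds DESeq2 means, fold changes and p-values, of which only gene symbols (a text column, unit other) were used. The hearts had from 28948836 to 89675692 counts each, with 3 hearts for either label.

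Counts were analysed with edgeR 4.0.16 (R 4.3.3, limma 3.58.1) on the whole table: filterByExpr (minimum count 10, total 15), TMM scaling, quasi-likelihood test with condition as the only term, Benjamini-Hochberg adjustment, threshold 0.05. The SE is the size of the log2 fold change over the square root of F. CPM are TMM-scaled. Coordinates and exonic lengths are from GENCODE vM21 (GRCm38) and promoters from RefSeq. Alternatives were RLE factors, library totals, DESeq2 1.42.0, other filters, thinning, leaving out each heart, a replicate block and a threshold of 0.01. The steps were tested on simulated counts with 200 genes changed by more than any member was here. Of these, 71.5% were recovered, and 15 unchanged genes were called. Changes as small as those of the members were not simulated.

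Named genes were the 4 members of each subunit with the smallest p, the 6 highest log2 fold changes above 0, the 2 highest and 2 lowest levels per kb, 10 members chosen by role, the 2 genes with the smallest p of each other list, and Ino80. The members, lists and names were chosen with earlier results of these data known. Cell type markers were lists for cardiomyocytes, endothelium, epicardium, fibroblasts, erythroid cells, macrophages, liver and lung epithelium.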

Additional observations from a re-analysis of the deposited data

How the results depend on the processing

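The count of members past the adjusted threshold was 0 in every alternative run, with a smallest member adjusted p between 0.0849 (without control-labelled replicate 1) and 0.390 (without mutant-labelled replicate 1). The members' median log2 fold change was below 0 in each, from -0.16 to -0.04 with 1 heart left out, and -0.05 with library totals only. At an unadjusted p below 0.05, 9 members were lower. This was 0 with library totals only (7.15% of all genes in that fit), 5 after thinning (9.57%), 0 at p below 0.01 (3.3%) and 0 to 19 with 1 heart left out (6.75% to 11.5%). Members lying wholly below the controls numbered 11, 7 with library totals (9.02% of all genes) and 12 to 28 with 1 heart left out, and those wholly above 1, 4 (18.9%) and 1 to 8. With fewer hearts groups lie apart more often by construction. With 1 heart left out, 15.8% to 36.8% of the members lay below, against 16.5% to 20.1% of all genes. The highest of these shares, 36.8%, came without control-labelled replicate 1, against 20.1% of all genes. Above the controls lay 1.32% to 10.5% of the members, against 18.1% to 21.8% of all genes. The cause of these differences and of the other moves was not tested. Over all genes, 0 were called by edgeR, against 443 higher and 570 lower in DESeq2, 262 and 341 with all genes of at least 1 count kept, 2 and 1 after thinning, and 0 to 320 higher and 0 to 431 lower with 1 heart left out. Those largest counts came without control-labelled replicate 1.

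The sign turned for 3 named members. With 1 heart left out, the log2 fold change ran from -0.22 to 0.011 for Mrpl12, from -0.041 to 0.054 for Mrpl45 and from -0.14 to 0.055 for Mrps12. With library totals it was 0.053 for Mrpl45 and 0.035 for Mrps12, and with all genes of at least 1 count it was 0.0037 for Mrpl45. The large minus small difference kept its sign, from 0.01 to 0.05. Same-numbered hearts did not deviate together (r of 0.01, -0.12 and -0.09). With deviations from the means of only 3 hearts per group, this cannot decide whether the numbers pair the hearts. With the replicate block, edgeR called 1 gene higher and 13 lower, 0 members, and 10 members were lower at an unadjusted p below 0.05, as were 10.5% of all genes. Depth did not limit detection, as each member had at least 257 counts in a heart.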

Other observations

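Copies of 3 members that are named as pseudogenes were counted separately. Mrpl48-ps had 8.64, 10.9 and 10.1 CPM in the control-labelled and 6.22, 8.25 and 6.49 CPM in the mutant-labelled hearts, with a log2 fold change of -0.50, whereas Mrpl48 itself had -0.01 (SE 0.08). Mrpl23-ps1 had 24.1, 30.4 and 26.0 CPM against 22.4, 24.2 and 25.1 CPM, with a log2 fold change of -0.17, beside -0.06 (SE 0.09) for Mrpl23. The copies of Mrps36, Mrps36-ps1 and Mrps36-ps2, had log2 fold changes of -0.21 and -0.22, beside -0.21 (SE 0.13) for Mrps36. How reads were divided between these copies and their parent genes is not given in the sources used here.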
